A study of Homo sapiens with 16 samples.

Results

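Epithelial cells are held together by cadherins, transmembrane proteins that bind their like on the neighbouring cell and are anchored to actin through catenins. In an epithelial-to-mesenchymal transition (EMT), a change of state known from development, wound repair and carcinoma, E-cadherin (CDH1) is typically lost, N-cadherin (CDH2) and the intermediate filament protein vimentin (VIM) are gained, and the zinc finger factors ZEB1, ZEB2, SNAI1 and SNAI2 and the helix-loop-helix factor TWIST1 can repress epithelial genes. HGF, the ligand of the MET receptor, is known to scatter epithelial cells. The genes described here are these 8, P-cadherin (CDH3) and the epithelial adhesion molecule EPCAM, 10 of the 42665 gene names on the array, chosen by name and represented by all 16 of their probes.

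RNA came from 16HBE, a human bronchial epithelial line immortalised with SV40 large T antigen. There were 4 groups of 4 one-colour Agilent arrays, 16 in all. Cells of 16HBE-WT carry unedited MET, and 16HBE-ex14 cells are a single clone (clone F) edited by CRISPR/Cas9 so that MET exon 14 is skipped, so that the edit and whatever else distinguishes this clone cannot be told apart. Both were starved of serum for 2 h and measured without HGF or after 24 h with HGF at 20 ng/mL (16HBE-WT+HGF and 16HBE-ex14+HGF). The 16HBE-WT+HGF arrays carry YY in place of WT in their titles and were grouped by their description and genotype, both of which say WT. The replicates are described as cultures grown at different times, but which array holds which culture is not stated. Replicate numbers therefore follow the 2 slides and the 2 rows used on each.

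A level below is the log2 processed signal of a probe minus the 75th percentile of its array, so that 0 is the brightness of that percentile, and levels of different probes are not compared as amounts of RNA. Each gene is represented by its brightest tested probe. Differences are between means of 4 arrays, from 1 limma fit over all arrays, with the standard error (SE) and a Benjamini-Hochberg adjusted p over all 34599 tested probes, meaning those well above background on 4 arrays or more. Calls needed an adjusted p below 0.05 and a fold change above 1.5, or 0.585 on the log2 scale. The 75th percentile lay between 139.5 and 262.8 intensity units, and 49.0% to 60.3% of the probes on an array exceeded its background. The lowest level well above background was -4.40 (median over arrays). Of the 16 probes 10 were tested (62.5%, against 59.4% of all 58201 probes), and these represent 9 of the genes, because both ZEB1 probes were too dim. MET itself was read at a mean of 4.97 ± 0.17 in 16HBE-WT and 5.10 ± 0.15 in 16HBE-ex14 cells (SD, n = 4), but its probe says nothing on exon 14 and does not check the edit.

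All 8 airway epithelial markers (KRT5, KRT7, KRT8, KRT18, KRT19, TP63, EPCAM and CDH1) were well above background on every array. Their summed intensity ran from 317500 to 387200 in untreated 16HBE-WT cells and from 313000 to 396700 with HGF, and from 394700 to 463400 in untreated 16HBE-ex14 cells and from 423400 to 467100 with HGF. These sums are not scaled, and the 75th percentile of the arrays was also higher in untreated 16HBE-ex14 (211.1 to 240.5) than in untreated 16HBE-WT cells (156.3 to 213.0). On the scaled values 3 of the 8 markers were higher and 5 lower in untreated 16HBE-ex14 cells, with a median difference of -0.04. Of 7 fibroblast markers, COL1A2, COL3A1, DCN and THY1 were above background on no array, LUM was so on all 16HBE-WT and no 16HBE-ex14 arrays, and COL1A1 and PDGFRB on all arrays. The summed intensity of the list was 100.2 to 231.4 in untreated and 103.2 to 157.6 in treated 16HBE-WT cells, and 83.4 to 123.9 in untreated and 85.5 to 121.0 in treated 16HBE-ex14 cells. PECAM1 and KDR of the 4 endothelial markers were likewise above background on no array, while VWF and CDH5 exceeded it on every array. The summed intensity of the list lay between 49.5 and 130.7. Of 3 leukocyte markers on the array, 2 were above background on every array, with a summed intensity of the list between 60.2 and 143.9.

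VIM changed most of the 9 tested genes. It rose with HGF in 16HBE-ex14 cells, it was higher in 16HBE-ex14 than in 16HBE-WT cells with and without HGF, and it was the only one of them called for a response to HGF. SNAI2 was lower and TWIST1 higher in 16HBE-ex14 than in 16HBE-WT cells, whatever the HGF treatment, although the TWIST1 calls are lost when single arrays are left out. CDH1, CDH2, CDH3, EPCAM, SNAI1 and ZEB2 were called in none of the 5 comparisons. In the plot of values by array, VIM is the one gene whose 4 groups do not touch each other among those above background on all arrays.

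**Figure D1:**
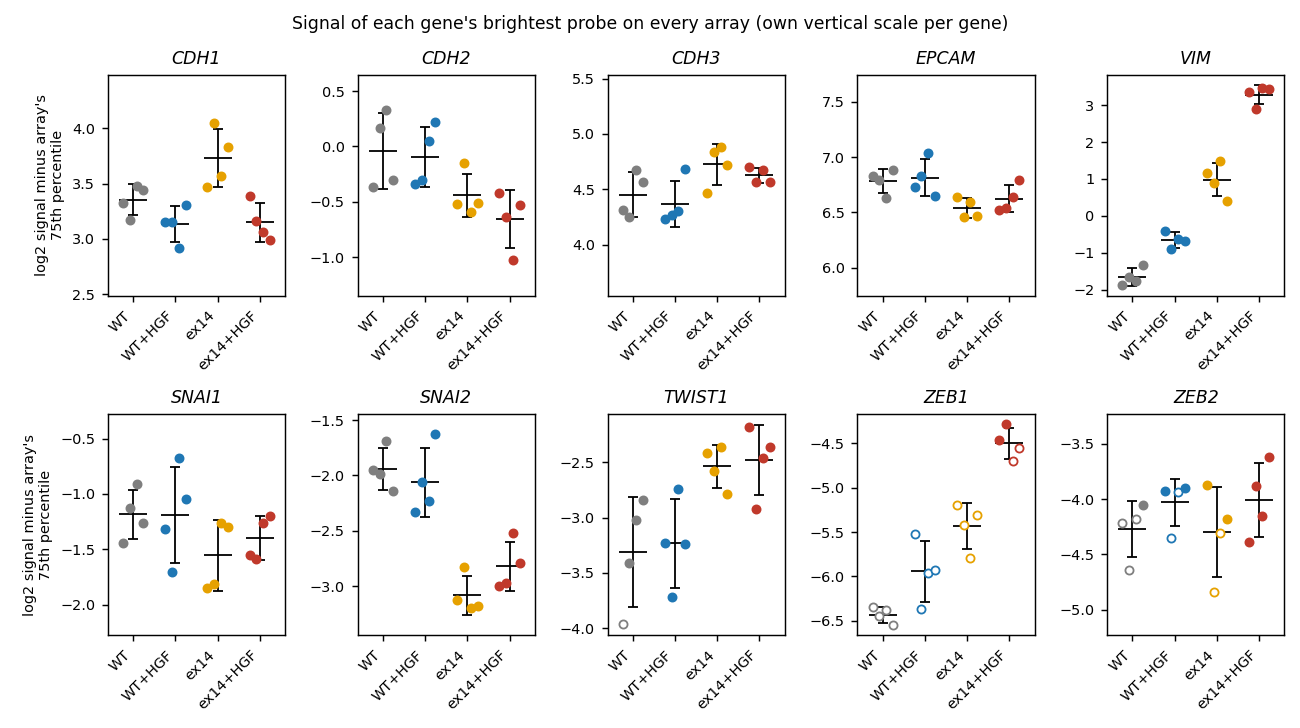
Level of the brightest probe of each of the 10 genes (log2 signal minus the array's 75th percentile, own vertical scale per gene) on the 4 arrays of each group. Circles are arrays, filled where the probe was well above background, and bars are mean ± SD. VIM climbs from a mean of -1.66 in 16HBE-WT to 3.29 in 16HBE-ex14+HGF, SNAI2 sits lower and TWIST1 higher in both 16HBE-ex14 groups, and EPCAM stays between 6.46 and 7.04.

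The probes of VIM and TWIST1, both called between the genotypes, lie in coding sequence and are printed 5′ to 3′ as the files give them, in lower case with no part capitalised. The VIM probe lies at hg19 chr10:17278347-17279256 on the plus strand, so its 60 bases are spread over 910 genomic bases and cross at least 1 intron, and 1 of its reading frames (from base 3) holds no stop codon. The TWIST1 probe lies at hg19 chr7:19156462-19156521 on the minus strand, and its frame from base 1 is open.
VIM probe: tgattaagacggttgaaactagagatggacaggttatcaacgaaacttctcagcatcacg
TWIST1 probe: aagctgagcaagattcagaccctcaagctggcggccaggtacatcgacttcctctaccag

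Snail, ZEB and Twist factors bind E-boxes, 6-base sites of the form CANNTG, which reads as the same form on both strands. Because VIM moved most, the 250 bases before its start in RefSeq (GRCh38.p14 chr10:17227991-17228240, plus strand) were searched for this form. They hold 0 matches to CANNTG and hence 0 to CAGGTG or its complement, while 61.8% of 35116 windows of the same length before RefSeq starts hold CANNTG and 17.5% hold CAGGTG. They hold 1 GC box (GGGCGG, searched on both strands), as 42.6% of windows hold at least 1, and it is capitalised here.
VIM, bases before the start: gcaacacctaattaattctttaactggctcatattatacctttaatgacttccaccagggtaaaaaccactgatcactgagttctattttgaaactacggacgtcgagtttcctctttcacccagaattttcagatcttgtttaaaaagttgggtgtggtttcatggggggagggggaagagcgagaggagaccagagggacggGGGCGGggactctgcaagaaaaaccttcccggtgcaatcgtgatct
A match or its absence in this window is a description of the letters and says nothing on which factor acts on the gene.

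Vimentin builds the intermediate filaments of mesenchymal cells and is also made by many cultured epithelial lines. On the 4 untreated 16HBE-WT arrays VIM read -1.87, -1.67, -1.78 and -1.33, and with HGF -0.40, -0.91, -0.63 and -0.68. On the untreated 16HBE-ex14 arrays it read 1.15, 0.88, 1.5 and 0.41, and with HGF 3.37, 2.89, 3.47 and 3.43. The 4 groups are ordered with no overlap between neighbours, 16HBE-WT lowest and 16HBE-ex14+HGF highest.

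With HGF, VIM rose in 16HBE-ex14 cells by 2.30 on the log2 scale (SE 0.21, 4.93-fold, 95% confidence interval of the log2 difference 1.86 to 2.75, adjusted p = 0.000185 by limma). It was the 10th largest rise of the 34599 probes. The rise was seen within each slide (2.11 and 2.49) and in all 4 rows. VIM was 1 of 9 tested genes called in this comparison, where 2% of all tested probes were called. For 2 of the 9 genes, VIM and CDH1, the groups did not overlap, as did 8.84% of all probes.

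In 16HBE-WT cells the difference with HGF was 1.01 (SE 0.21, 2.01-fold, 95% interval 0.56 to 1.46), higher in all 4 rows, but with an adjusted p of 0.576 by limma it was not called. No probe on the array was called in this comparison (0%), in which 1694 probes and, of the 9 genes, VIM alone were below an unadjusted 0.05. VIM was also the only 1 of the 9 genes whose HGF-treated and untreated 16HBE-WT arrays did not overlap, against 2.61% of all probes. With normexp background correction this difference was 0.58.

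The response of VIM to HGF was larger in 16HBE-ex14 than in 16HBE-WT cells by 1.29 (SE 0.30, 95% interval 0.66 to 1.93), with an adjusted p of 0.459 by limma. No probe was called for the difference of the responses (0%), while 1600 probes and 1 of the 9 genes were below an unadjusted 0.05. With normexp background correction VIM was called for this difference (1.55, adjusted p = 0.0339 by limma), 1 of 4 probes called on the whole array in that setting. That setting adds an offset of 50, which shrinks log2 differences of dim signals more than those of bright ones. VIM intensity was 45.5 to 70.1 in untreated and 89.15 to 142.6 in treated 16HBE-WT cells. In 16HBE-ex14 cells it was 300.2 to 680.4 untreated and 1495 to 2710 treated. The call in that setting is therefore no separate evidence of a larger response.

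Without HGF, VIM was higher in 16HBE-ex14 than in 16HBE-WT cells by 2.65 (SE 0.21, 6.27-fold, adjusted p = 1.52e-06 by limma), and with HGF by 3.94 (SE 0.21, 15.4-fold, adjusted p = 2.7e-08 by limma). VIM was the 35th largest rise without HGF and the 10th largest with it. Both calls held in each of 13 other settings and without each array in turn, from 1.82 to 2.84 without HGF and from 3.38 to 4.07 with it. In bulk RNA, more cells with VIM and more VIM RNA per cell cannot be told apart.

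Among the 50 genes on chromosome 10 closest to VIM on the array (25 on each side), the median difference between the genotypes without HGF was -0.04, and 23 were higher and 27 lower. KRT5, a keratin of basal airway cells and the 1 called gene of the epithelial marker list, went the other way from VIM. Its difference between untreated 16HBE-ex14 and 16HBE-WT cells was -2.57 (SE 0.19, adjusted p = 6.29e-07 by limma), and it fell with HGF in 16HBE-ex14 cells by 2.32 on the log2 scale (SE 0.19, adjusted p = 0.000147 by limma). The part of any other cell type in the VIM difference was not tested.

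VIM-AS1 is transcribed from the opposite strand next to VIM. Its brighter probe did not follow VIM, with means between 0.48 and 0.72 in the 4 groups and no call. A second probe (hg19 chr10:17256419-17256478, minus strand) went from -5.57 ± 0.80 to -4.09 ± 0.42 with HGF in 16HBE-WT cells and from -5.51 ± 0.83 to -3.01 ± 0.30 with HGF in 16HBE-ex14 cells (SD, n = 4). It was not well above background on any untreated array and was so on 2 of 4 16HBE-WT+HGF and 4 of 4 16HBE-ex14+HGF arrays. It was called with HGF in 16HBE-ex14 cells (adjusted p = 0.00511 by limma), at least 2.92-fold higher when the untreated arrays are set at the lowest signal well above background. The 2 probes of VIM-AS1 thus gave different results, and neither was called between the genotypes. The second probe entered the test only through HGF-treated arrays, where it was high. Its call with HGF could therefore only have been a rise, and its p includes untreated values below detection. Without HGF it was not well above background in either genotype, so that comparison could not have shown a difference and cannot be set against VIM.

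Over the 16 arrays, the 3 genes outside the list whose levels were most like those of VIM, among 19261 genes above background on all arrays, were SPNS2 (Pearson r 0.988, Spearman rho 0.971), HIF1A (0.981 and 0.959) and NID1 (0.980 and 0.979). SPNS2 exports sphingosine-1-phosphate, HIF1A is the oxygen-regulated subunit of the hypoxia factor and NID1 is a basement membrane protein. The mean level of NID1 went from -1.06 to -0.67 with HGF in 16HBE-WT cells and from 0.47 to 1.15 with HGF in 16HBE-ex14 cells. These correlations describe arrays that fall in 4 groups and share slides, and no test was made.

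**Figure D2:**
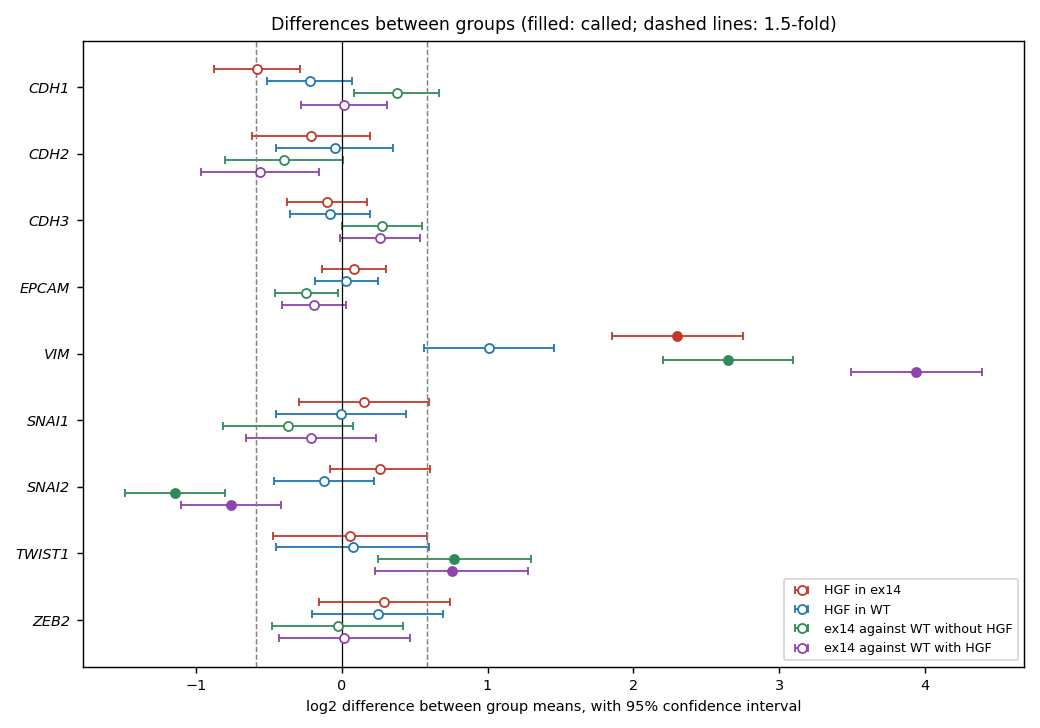
Difference between group means on the log2 scale (horizontal axis) with its 95% confidence interval, for the 9 tested genes and 4 comparisons. Filled circles are called, and dashed lines mark a 1.5-fold change. The VIM interval with HGF in 16HBE-ex14 cells runs from 1.86 to 2.75, and the CDH1 estimate for the same comparison (-0.58) lies just inside the dashed line.

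CDH1 encodes E-cadherin, the main cadherin of epithelial junctions. It read 3.32, 3.17, 3.48 and 3.44 on the untreated 16HBE-WT arrays and, with HGF, 3.15, 3.15, 2.92 and 3.31. It read 3.47, 4.05, 3.57 and 3.83 on the untreated 16HBE-ex14 arrays and, with HGF, 3.39, 3.16, 3.06 and 2.99. Every 16HBE-ex14+HGF array lay below every untreated 16HBE-ex14 array, while the other neighbouring groups overlapped.

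The CDH1 difference with HGF in 16HBE-ex14 cells was -0.58 (SE 0.14, 1.49-fold, 95% interval -0.87 to -0.29, adjusted p = 0.0347 by limma). It passed the adjusted p and missed the fold limit, so it was not called. It was -0.48 within the first slide and -0.67 within the second. CDH1 passed both limits when arrays were scaled to their median (-0.74, adjusted p = 0.0415), and when replicate 1 (-0.67) or 3 (-0.63) of the untreated group or replicate 1 of the treated group (-0.66) was left out. In the other direction, its adjusted p was 0.0555 with quantile normalization, 0.121 with spike-in scaling and 0.142 when only the 8 arrays of the comparison were fitted. It was also above 0.05 without untreated replicate 2 or 4 or treated replicate 2, 3 or 4. Over all 16 arrays left out in turn, the difference ran from -0.67 to -0.47 and the adjusted p from 0.0256 to 0.123.

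In 16HBE-WT cells CDH1 differed by -0.22 with HGF (95% interval -0.51 to 0.07, adjusted p = 1.00 by limma), and the responses of the genotypes differed by -0.36 (95% interval -0.77 to 0.06). Without HGF, CDH1 was 0.38 higher in 16HBE-ex14 than in 16HBE-WT cells (adjusted p = 0.0724 by limma), and with HGF the difference was 0.02 (95% interval -0.28 to 0.31). CDH1 is printed in 10 spots per array, where the other 9 genes have 1 spot per probe, and the SD of its spots was 0.05 to 0.12, against an SD between arrays of a group of 0.14 to 0.26.

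CDH3, P-cadherin of basal epithelial cells, lies next to CDH1 on chromosome 16. It ranged from 4.23 to 4.88 over all arrays and was 0.28 higher in 16HBE-ex14 than in 16HBE-WT cells without HGF (95% interval 0.0027 to 0.55, adjusted p = 0.161 by limma) and 0.26 higher with HGF (adjusted p = 0.182). Its differences with HGF were -0.10 and -0.08 in 16HBE-ex14 and 16HBE-WT cells. The 50 genes around CDH1 had a median genotype difference of 0.47 without HGF and 0.39 with it, 41 and 37 of them higher in 16HBE-ex14 cells, against a median of -0.02 and -0.0044 over all probes. Without HGF CDH1 and CDH3 lay on the same side as their neighbourhood, whose part in their difference was not tested. With HGF in 16HBE-ex14 cells the same neighbourhood had a median of -0.04.

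CDH2 encodes N-cadherin, which mesenchymal and neural cells use. Its brighter probe ranged from -0.37 to 0.33 in untreated 16HBE-WT cells and from -0.34 to 0.22 with HGF, and from -0.59 to -0.15 in untreated 16HBE-ex14 cells and from -1.03 to -0.42 with HGF. With HGF the 2 genotypes did not overlap and differed by -0.56 (SE 0.19, adjusted p = 0.0485 by limma), short of the fold limit. The difference was -0.20 within the first slide and -0.92 within the second. Both limits were passed without replicate 1 of the treated 16HBE-ex14 arrays (-0.64) or without replicate 1 (-0.64) or 2 (-0.63) of the treated 16HBE-WT arrays. Over all 16 arrays left out in turn the difference ran from -0.64 to -0.44 and the adjusted p from 0.0388 to 0.143, and in other settings the adjusted p reached 0.126. Without HGF the difference was -0.40 (adjusted p = 0.173), and the second, dimmer probe gave -0.63 without HGF (adjusted p = 0.0507) and -0.49 with it. With HGF the CDH2 differences were within their error in 16HBE-ex14 (-0.21, 95% interval -0.62 to 0.19) or 16HBE-WT cells (-0.05, 95% interval -0.45 to 0.35).

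EPCAM, a surface protein of most epithelia, read 6.78 ± 0.11 in untreated 16HBE-WT cells and 6.81 ± 0.17 with HGF, and 6.54 ± 0.09 in untreated 16HBE-ex14 cells and 6.62 ± 0.12 with HGF (SD, n = 4). It was not saturated on any array. It differed by 0.08 with HGF in 16HBE-ex14 cells (95% interval -0.13 to 0.30) and by -0.24 between the genotypes without HGF (adjusted p = 0.119 by limma). The 50 genes around EPCAM on chromosome 2 had a median genotype difference of -0.18, with 38 lower in 16HBE-ex14 cells.

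Of the transcription factors, SNAI2 (Slug) was the 1 called with a lower level in 16HBE-ex14 cells. The untreated 16HBE-WT arrays read -1.95, -1.99, -1.69 and -2.14 and those with HGF -2.33, -2.06, -2.23 and -1.63. The untreated 16HBE-ex14 arrays read -3.13, -2.83, -3.20 and -3.18 and those with HGF -3.00, -2.97, -2.52 and -2.79. All 8 arrays of 16HBE-ex14 cells, with or without HGF, lay below all 8 of 16HBE-WT cells.

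The SNAI2 difference between 16HBE-ex14 and 16HBE-WT cells was -1.14 without HGF (SE 0.16, 2.21-fold, adjusted p = 0.00021 by limma) and -0.76 with HGF (SE 0.16, 1.69-fold, adjusted p = 0.00361 by limma). Of the 9 tested genes 3 were called in each of these comparisons (VIM, TWIST1 and SNAI2), where 9.4% of all probes were called without HGF and 10.8% with it. Groups did not overlap for 3 genes without HGF (VIM, SNAI2 and TWIST1) and 3 with HGF (VIM, SNAI2 and CDH2), and for 21.4% and 23.9% of all probes. Within the 2 slides the SNAI2 difference was -1.01 and -1.27 without HGF and -0.79 and -0.73 with it. With normexp background correction it was -0.56 and -0.47, short of the fold limit, and neither was called. The offset of 50 in that setting shrinks differences of so dim a probe, whose intensity was 24.2 to 65.9 over all arrays.

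The SNAI2 differences with HGF were within their error, 0.26 in 16HBE-ex14 cells (95% interval -0.08 to 0.60) and -0.12 in 16HBE-WT cells (95% interval -0.46 to 0.22). In 16HBE-ex14 cells the difference was -0.01 within the first slide and 0.53 within the second, and its interval reaches a 1.5-fold rise. The 50 neighbouring genes on chromosome 8 had a median genotype difference of 0.03 without HGF. The genes most like SNAI2 over the 16 arrays were ZDHHC14 (Pearson r 0.967, Spearman rho 0.938), DCBLD1 (0.956 and 0.947) and TMEM38A (0.956 and 0.888). Both ZDHHC14 and DCBLD1 lie on chromosome 6, and the part of a clone difference shared along that chromosome was not tested. As for VIM, these correlations describe arrays that fall in 4 groups.

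TWIST1 is a basic helix-loop-helix factor of mesoderm and neural crest. Its brighter probe, the coding one printed above, read -3.96, -3.41, -3.02 and -2.84 in untreated 16HBE-WT cells and -3.23, -3.72, -2.74 and -3.24 with HGF. It read -2.42, -2.58, -2.36 and -2.79 in untreated 16HBE-ex14 cells and -2.18, -2.92, -2.46 and -2.36 with HGF. The lowest 16HBE-WT array was not well above background, and the groups overlapped with HGF but not without it.

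TWIST1 was 0.77 higher in 16HBE-ex14 than in 16HBE-WT cells without HGF (SE 0.25, 1.71-fold, adjusted p = 0.0415 by limma) and 0.75 higher with HGF (SE 0.25, 1.69-fold, adjusted p = 0.0422 by limma). Within the first slide the difference without HGF was 1.18 and within the second 0.36. Each call was lost when any 1 of 9 of the 16 arrays was left out. Without HGF these were untreated 16HBE-ex14 replicates 1, 2 and 3, untreated 16HBE-WT replicates 1 and 2, treated 16HBE-WT replicates 1 and 4 and treated 16HBE-ex14 replicates 3 and 4. With HGF they were treated 16HBE-ex14 replicates 1, 3 and 4, treated 16HBE-WT replicates 1, 2 and 4, untreated 16HBE-ex14 replicates 1 and 2 and untreated 16HBE-WT replicate 2. The smallest value without HGF was 0.56 without 16HBE-WT replicate 1 (adjusted p = 0.126), and with HGF 0.59 without 16HBE-WT+HGF replicate 2 (adjusted p = 0.127). With normexp background correction the differences were 0.11 and 0.05.

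The second TWIST1 probe was well above background on 1 of 16 arrays and was not tested. With HGF the TWIST1 differences were 0.06 in 16HBE-ex14 cells (95% interval -0.47 to 0.58) and 0.07 in 16HBE-WT cells (95% interval -0.45 to 0.60), and both turned below 0 with quantile normalization and with scaling to the array median. The genes most like TWIST1 over the arrays were CCDC127 (Pearson r 0.897, Spearman rho 0.882), GLIPR1 (0.890 and 0.894) and LINS1 (0.885 and 0.841).

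SNAI1 (Snail) ranged from -1.85 to -0.68 over all arrays and was called in no comparison. Its difference with HGF was 0.15 in 16HBE-ex14 (95% interval -0.29 to 0.60) and -0.01 in 16HBE-WT cells (95% interval -0.45 to 0.44), and its genotype difference was -0.37 without HGF (95% interval -0.82 to 0.08) and -0.21 with it. The intervals reach a 1.5-fold change except for HGF in 16HBE-WT cells.

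ZEB1, a repressor of CDH1, was near the limit of detection. Its brighter probe read -6.35, -6.45, -6.38 and -6.55 in untreated 16HBE-WT cells and -5.52, -6.37, -5.96 and -5.93 with HGF. It read -5.19, -5.42, -5.79 and -5.31 in untreated 16HBE-ex14 cells and -4.46, -4.28, -4.70 and -4.55 with HGF. Treated 16HBE-ex14 replicates 1 and 2 were the 2 arrays on which it exceeded background, so it was not tested. The group means lie in the order seen for VIM, but both 16HBE-WT groups overlap each other, treated 16HBE-WT overlaps untreated 16HBE-ex14, and only treated 16HBE-ex14 arrays stand clear of the rest. Set against the lowest signal well above background, 16HBE-ex14+HGF cells were at least 1.04-fold higher than 16HBE-ex14 cells, a bound close to no change. The second ZEB1 probe was above background on no array and had its lowest mean in 16HBE-ex14+HGF cells (-6.53), so the 2 probes do not show the same order.

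ZEB2 has 4 probes, of which 1 was tested, well above background on 1 untreated and 2 treated 16HBE-WT arrays and on 2 untreated and 4 treated 16HBE-ex14 arrays. It ranged from -4.84 to -3.62, and its difference with HGF in 16HBE-ex14 cells was 0.29 (95% interval -0.16 to 0.74). ZEB1-AS1 and ZEB2-AS1, transcripts from the opposite strand at the ZEB loci, were called in no comparison. MIR200CHG and MIR205HG, host transcripts of microRNAs known to repress the ZEB factors, were likewise not called. Without HGF, MIR205HG went from 7.33 ± 0.12 in 16HBE-WT to 7.70 ± 0.14 in 16HBE-ex14 cells (SD, n = 4), a difference of 0.36 (adjusted p = 0.0346 by limma, below the fold limit), and MIR200CHG differed by 0.69 (adjusted p = 0.0873).

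Over the 9 tested genes the median difference was 0.08 with HGF in 16HBE-ex14 cells, -0.01 with HGF in 16HBE-WT cells, and -0.03 and 0.02 between the genotypes without and with HGF, beside 0.05, 0.04, -0.02 and -0.0044 over all tested probes. With HGF in 16HBE-ex14 cells 6 of the 9 were higher and 3 lower.

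Genes that work with these 10 were grouped in lists. Of 9 catenins, nectins and linked proteins at cadherin junctions, none was called with HGF in 16HBE-ex14 cells, where 2% of all probes were called. Of these 9, 7 were lower and the median was -0.35, beside 0.05 over all probes. AFDN (afadin, which links nectins to actin) differed by -0.70 between untreated 16HBE-ex14 and 16HBE-WT cells (SE 0.14, adjusted p = 0.00317 by limma). It was the 1 of the 9 called between the genotypes, where 9.4% of all probes were called without HGF and 10.8% with it. AFDN lies on chromosome 6, as do ZDHHC14 and DCBLD1, and the part of a clone difference shared along that chromosome was not tested. Of 8 other classical cadherins 3 were tested, and 1 was called with HGF in 16HBE-ex14 cells, where 2% of all probes were called. It was CDH4 (R-cadherin), which rose by 0.77 (SE 0.16, adjusted p = 0.0155 by limma), from 3.03 ± 0.37 to 3.80 ± 0.16 (SD, n = 4).

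Among 10 epithelial transcription and splicing factors (the OVOL, GRHL, ESRP and KLF families and ELF3), 1 fell with HGF in 16HBE-ex14 cells and none rose, where 2% of all probes were called. It was ELF3, an epithelial ETS factor, which went from 2.82 ± 0.39 to 1.35 ± 0.33 (SD, n = 4), a difference of -1.48 (SE 0.19, adjusted p = 0.00156 by limma). GRHL3 was the 1 called between the genotypes without HGF (-0.67, SE 0.20, adjusted p = 0.0298 by limma), where 9.4% of all probes were called. With HGF 3 of the 10 were called lower in 16HBE-ex14 than in 16HBE-WT cells, where 10.8% of all probes were called in either direction. OVOL1, OVOL2, ESRP1 and ESRP2 were not called with HGF or between the untreated genotypes.

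Of 12 further EMT factors 9 were tested, and 3 rose with HGF in 16HBE-ex14 cells, where 2% of all probes were called in either direction. FOXQ1, a forkhead factor, rose by 1.38 (SE 0.19, adjusted p = 0.00181 by limma) from 2.64 ± 0.21 to 4.02 ± 0.37 (SD, n = 4), HMGA2, a chromatin protein, by 1.28 (SE 0.21, adjusted p = 0.00511) and TWIST2 by 0.69 (SE 0.11, adjusted p = 0.00321). Without HGF, TCF4 (1.51, SE 0.18) and FOXQ1 (1.03, SE 0.19) were higher in 16HBE-ex14 than in 16HBE-WT cells and TWIST2 (-0.73, SE 0.11) and KLF8 (-0.66, SE 0.15) lower, with adjusted p from 5.94e-05 to 0.00791 by limma, 4 of 9 called where 9.4% of all probes were. TWIST2, the paralog of TWIST1 with a near-identical helix-loop-helix region, was thus on the opposite side of zero from TWIST1 between the untreated genotypes. The median of the 9 with HGF in 16HBE-ex14 cells was -0.0080, beside 0.05 over all probes.

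Of 16 mesenchymal genes 12 were tested. With HGF in 16HBE-ex14 cells 11 were lower and the median was -0.38, beside 0.05 over all probes. Of the 12, 2 fell and none rose, where 2% of all probes were called: LOXL2, a collagen crosslinking enzyme (-0.84, SE 0.15, adjusted p = 0.00878 by limma), and SPARC, a matrix glycoprotein (-0.83, SE 0.17, adjusted p = 0.0166 by limma). Between the untreated genotypes FN1 (fibronectin) differed by -1.34 (SE 0.20, adjusted p = 0.000293 by limma). LUM (lumican), also among the fibroblast markers, was well above background on all 8 arrays of 16HBE-WT cells and on none of 16HBE-ex14 cells, at least 3.06-fold lower without HGF. These were the 2 of 12 called without HGF, where 9.4% of all probes were called. LUM entered the test only through the 16HBE-WT arrays, where it was high, so its direction was fixed in advance. Each other called gene of the list was lower where VIM was higher.

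Of 7 genes of filaments related to vimentin 6 were tested. PRPH (peripherin) was higher in untreated 16HBE-ex14 than in untreated 16HBE-WT cells by 1.05 (SE 0.28, adjusted p = 0.0158 by limma). It was the 1 of the 6 called there, where 9.4% of all probes were called. None of the 6 was called with HGF in 16HBE-ex14 cells, where 2% of all probes were called. Of 10 genes of TGF-beta signalling, a known inducer of EMT, 9 were tested. Of these 1 was called with HGF in 16HBE-ex14 cells, where 2% of all probes were called. It was TGFB2, which fell from -1.46 ± 0.22 to -3.14 ± 0.58 (SD, n = 4), a difference of -1.69 (SE 0.28, adjusted p = 0.00454 by limma). Of 12 surface and polarity partners of EPCAM, none was called with HGF in 16HBE-ex14 cells, where 2% of all probes were called. In none of the lists was a gene called with HGF in 16HBE-WT cells or for the difference of the responses, 2 comparisons in which no probe of the array was called.

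**Figure D3:**
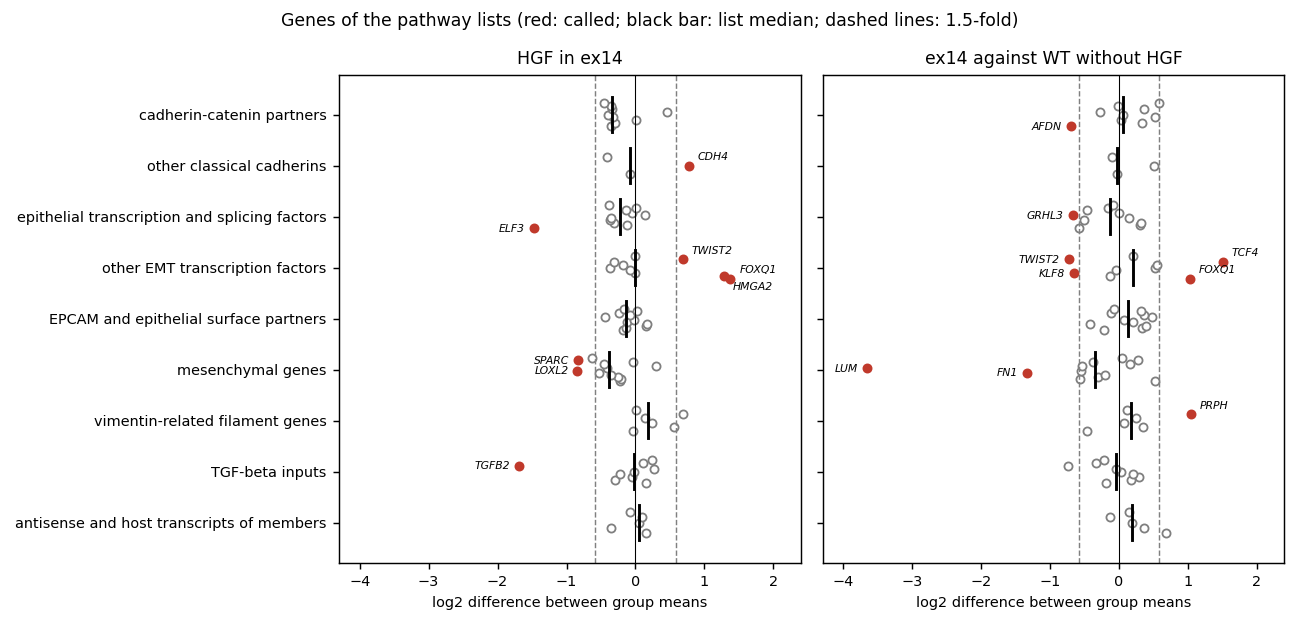
Difference between group means on the log2 scale for the tested genes of 9 lists (1 gene not reported here is left out), with HGF in 16HBE-ex14 cells (left) and for 16HBE-ex14 against 16HBE-WT cells without HGF (right). Red circles are called, black bars are medians over all tested genes of a list and dashed lines mark a 1.5-fold change. With HGF the called genes are 1 cadherin and 3 EMT factors that rose and 4 others that fell, among them ELF3 (-1.48) and TGFB2 (-1.69).

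Of the calls among the 10 genes, those of VIM held in every setting tried, those of SNAI2 in all but 1 (normexp), and those of TWIST1 in 9 of 12 other settings and 7 of 16 fits with an array left out, in each genotype comparison. In the plot of alternatives CDH1 straddles the 1.5-fold line and most of the lost TWIST1 calls lie near the reported value, with those of normexp (0.11 and 0.05) far below it.

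**Figure D4:**
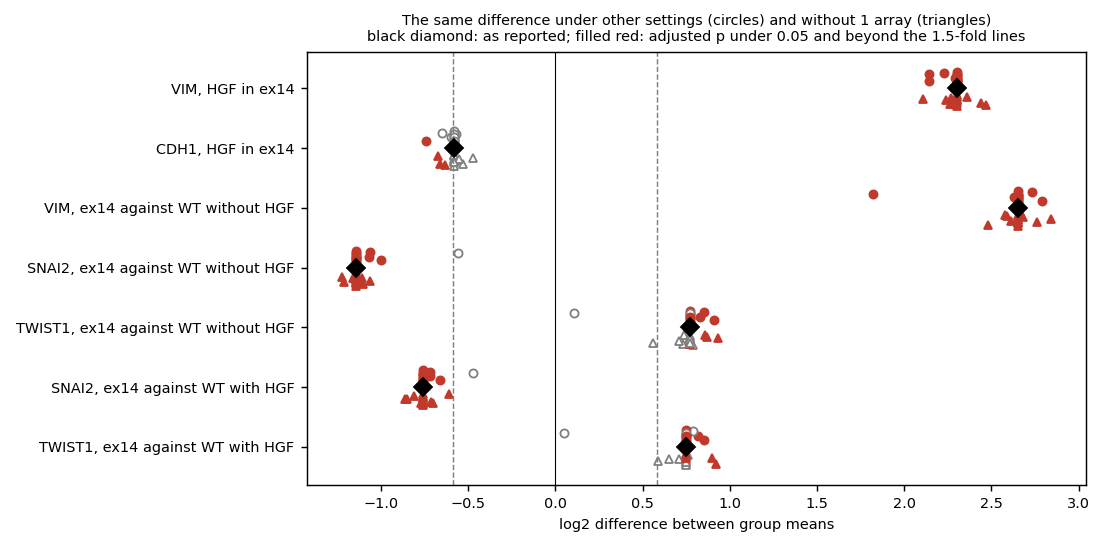
Difference between group means on the log2 scale as reported (black diamond), in other settings (circles) and with 1 array left out (triangles), for 7 results. Filled red symbols pass both limits and dashed lines mark a 1.5-fold change. VIM with HGF in 16HBE-ex14 cells runs from 2.11 to 2.47, and SNAI2 and TWIST1 each have 1 circle near or inside the lines, from normexp background correction.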

How the data were processed

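Labelled cRNA was hybridised by the authors to Agilent arrays of 60-base probes in 1 colour, and the output of Feature Extraction 10.7.3.1 was deposited. The deposited intensity is the linear processed signal, which the authors left unscaled between arrays. The deposited series matrix holds the same values at all 62976 spots. From there, R 4.3.3 with limma 3.58.1 and data.table (version 1.17.8), and Python 3.11.15 with matplotlib 3.10.9, were used for tests and plots. Marked outlier spots (0.112% of spots) were dropped, log2 values taken, each array's 75th percentile subtracted, and spots of a probe averaged. limma was fitted with 1 mean per group over 16 arrays, with no batch term, as the methods name none. The fit was tested on simulated data.

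The 10 genes and the lists were chosen with earlier results of these data known. All 10 are described in every comparison. List genes are named where called with HGF in 16HBE-ex14 cells, between the untreated genotypes or for the difference of responses (at most 4 per list and comparison), and the 3 genes most correlated with each called gene are named. Probe names and positions (hg19) are those of the files. The number of arrays limits the precision. Alternatives were normexp correction (offset 50), quantile, median and E1A spike-in scaling (7 probes), other filters, outlier spots kept, slide and row blocks, another prior, fewer arrays, gene means, values from the deposited series matrix, and leaving out each array. Results of some list genes are not reported here.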

Additional observations from a re-analysis of the deposited data

Results flagged for a closer look

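In 40 groups of 4 arrays (the 10 genes in 4 groups), 2 arrays stood apart by Dixon's test at the 95% level, and chance alone gives about 1 in 20 groups. CDH3 in 16HBE-WT+HGF replicate 4 (4.68, against 4.23 to 4.3 on the other 3 arrays) had a gap of 0.854 of the group's range. ZEB2 in 16HBE-WT+HGF replicate 2 (-4.35, against -3.94 to -3.9) had a gap of 0.92 of the range, on a probe that was well above background on only 2 of these 4 arrays, not on replicate 2.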

How the results depend on the processing

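VIM kept its 3 calls in all 13 other settings and all 16 fits with an array left out, and with HGF in 16HBE-WT cells it was called in none. One setting counted here and above, the values of the deposited series matrix, holds the same numbers and could not have changed a call. The number of the 9 genes called with HGF in 16HBE-ex14 cells was 2 (CDH1 and VIM) when arrays were scaled to their median, and 1 to 2 with an array left out. With normexp it was 1 (VIM) in each genotype comparison and 1 (VIM, 1.55) for the difference of responses. The normexp offset of 50 is of the size of the SNAI2, TWIST1 and untreated 16HBE-WT VIM signals and shrinks log2 differences of such dim signals. The TWIST1 call without HGF was also lost with no filter on dim probes and with only the arrays compared, and the one with HGF with spike-in scaling and only the arrays compared. Over all other values of single genes, 1194 of 1286 kept direction and side of the limits, 26 lost a call, 8 gained one and 58 changed sign, and the cause was not tested.

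The changes of sign were at differences near 0. With HGF in 16HBE-ex14 cells they were EPCAM (-0.08) and SNAI1 (0.00) with median scaling, and TWIST1 with quantile (-0.02), median (-0.10) and spike-in scaling (-0.01), and -0.04 to 0.20 with an array left out. With HGF in 16HBE-WT cells they were EPCAM with quantile (-0.05) and median scaling (-0.09), SNAI1 with normexp (0.02) and TWIST1 with quantile (-0.02) and median scaling (-0.04). With an array left out the range there was -0.16 to 0.07 for CDH2, -0.04 to 0.09 for EPCAM, -0.18 to 0.17 for SNAI1 and -0.14 to 0.24 for TWIST1. Between untreated genotypes ZEB2 was 0.15, 0.11 and 0.05 with quantile, median and spike-in scaling and -0.17 to 0.15 with an array left out. Between treated genotypes CDH1 was -0.04 with quantile normalization and -0.06 to 0.08 with an array left out, and ZEB2 was -0.24 with normexp and -0.11 to 0.14. For the difference of responses ZEB2 was -0.02 with quantile normalization and -0.13 to 0.19 with an array left out, where CDH3 was -0.10 to 0.09, EPCAM 0.00 to 0.13, SNAI1 -0.01 to 0.33 and TWIST1 -0.18 to 0.20.

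Over all probes, 693 calls with HGF in 16HBE-ex14 cells became 411 with normexp and 246 with only the arrays compared, and 346 to 977 with an array left out (lowest without untreated 16HBE-ex14 replicate 2). With normexp 3252 and 3749 genotype calls became 1489 and 1814. For the difference of responses 0 became 4 with normexp and with a trended, robust prior, and 0 to 11 with an array left out. Median scaling moved the median of all probes from 0.05 to -0.11 with HGF in 16HBE-ex14 cells and from -0.02 to 0.12 between untreated genotypes, and normexp moved both genotype medians (-0.13 and -0.14). With slide and row as a replicate block the members called were unchanged (1, 0, 3, 3 and 0 in the 5 comparisons) and 734 probes were called with HGF in 16HBE-ex14 cells. Deviations of arrays in the same row correlated by 0.03 to 0.32, about as much as those in the other row of the slide (medians 0.20 and 0.21), and those on the other slide by a median of -0.20. Arrays thus deviated together by slide, with no added likeness within a row. Whether a row holds the arrays of 1 culture cannot be told from this. With slide alone as a block 825 probes were called with HGF in 16HBE-ex14 cells, and 3538 and 4112 between untreated and treated genotypes. ZEB1 and most ZEB2 probes were too dim to test.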
